A study of Mus musculus with 59 samples.

Results

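Fed liver BCL6 and PPARδ peaks were compared position by position to ask where the repressor and the nuclear receptor occupied the same chromatin and where each lay alone. A BCL6 peak and a PPARδ peak formed 1 shared site when their centers lay within 200 bp, and every other peak was specific to its factor in these lists. The 15642 fed BCL6 peaks and 7328 fed PPARδ peaks gave 18760 sites, of which 4210 were shared, 11432 were BCL6-specific and 3118 were PPARδ-specific. All 7 peak lists of the series together held 102931 peaks.

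Both factors were mapped in whole livers of male WT C57BL/6 mice fed ad libitum, with 3 samples per factor, by ChIP-seq, which sequences DNA that is crosslinked to a protein and recovered with its antibody. Calls that the classes did not use came from overnight fasted male WT C57BL/6 mice for BCL6, PPARα and PPARδ, from fed mice of the same strain and genotype for PPARα, and from fed C57BL/6 *Bcl6* fl/fl mice for BCL6. The floxed mice were the controls of a liver knockout and carried no Cre. Each list was 1 call over 3 pooled samples and gave positions without scores or read numbers, so the depth is unknown, no site has an error between samples, and a peak below the calling threshold cannot be told from an absent one. Whole liver also mixes cell types, so fewer bound cells and less binding per cell cannot be told apart.

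BCL6 is a zinc-finger transcription factor that represses genes by recruiting corepressor complexes and is best known from germinal center B cells. PPARδ is a nuclear receptor activated by fatty acids that binds DNA with RXR at direct repeats of AGGTCA spaced by a single base (DR1). PPARα, its close relative, binds the same kind of element and drives fatty acid oxidation and ketone body synthesis in fasted hepatocytes.

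Sequence windows at the centers of chosen sites are given first. No sequence element entered the rule that set the classes. At shared sites the windows with the closest match to DR1 among genes of the lists below are given, on the plus strand of GRCm38 (mm10), with the match in capitals. They lay upstream of *G6pc*, the last enzyme of glucose release (chr11:101351132-101351331), in the promoter of *Acox2*, a peroxisomal bile acid oxidase (chr14:8259315-8259514), 727 bp downstream of the start of *Hadh*, a mitochondrial β-oxidation dehydrogenase, in an intron (chr3:131271274-131271473), and in an intron of the corepressor subunit gene *Tbl1xr1* (chr3:22082837-22083036). The match was exact at *G6pc* and had 1 mismatch at the others. Capitals mark a single match per window, and the *G6pc* window holds a further exact one that overlaps it.
G6pc: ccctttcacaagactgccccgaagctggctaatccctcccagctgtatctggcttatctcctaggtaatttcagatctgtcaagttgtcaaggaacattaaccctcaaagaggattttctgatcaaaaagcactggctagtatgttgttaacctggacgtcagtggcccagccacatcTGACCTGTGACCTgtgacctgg
Acox2: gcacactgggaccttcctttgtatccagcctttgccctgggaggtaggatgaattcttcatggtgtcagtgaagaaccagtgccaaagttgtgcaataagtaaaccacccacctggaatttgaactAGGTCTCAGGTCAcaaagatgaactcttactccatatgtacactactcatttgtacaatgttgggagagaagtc
Hadh: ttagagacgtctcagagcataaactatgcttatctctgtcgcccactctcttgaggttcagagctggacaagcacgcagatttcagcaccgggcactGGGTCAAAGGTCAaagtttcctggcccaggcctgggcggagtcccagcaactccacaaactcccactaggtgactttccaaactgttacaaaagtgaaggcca
Tbl1xr1: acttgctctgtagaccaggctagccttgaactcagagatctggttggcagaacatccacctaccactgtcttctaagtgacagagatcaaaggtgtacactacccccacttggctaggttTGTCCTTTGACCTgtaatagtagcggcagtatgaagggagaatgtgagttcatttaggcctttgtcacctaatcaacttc

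BCL6-specific sites are shown with an exact BCL6 element, TTCCTAGAA, or its other strand, in capitals. They lay in introns of *Onecut1*, which encodes HNF6 (chr9:74865494-74865693), of the succinate dehydrogenase gene *Sdha* (chr13:74345022-74345221) and of *Nr1h3*, which encodes LXRα (chr2:91189127-91189326), and upstream of the liver fatty acid-binding protein gene *Fabp1* (chr6:71193444-71193643).
Onecut1: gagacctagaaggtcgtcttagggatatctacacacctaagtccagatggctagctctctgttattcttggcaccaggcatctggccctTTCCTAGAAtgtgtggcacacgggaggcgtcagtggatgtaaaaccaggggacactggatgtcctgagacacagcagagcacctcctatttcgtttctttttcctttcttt
Sdha: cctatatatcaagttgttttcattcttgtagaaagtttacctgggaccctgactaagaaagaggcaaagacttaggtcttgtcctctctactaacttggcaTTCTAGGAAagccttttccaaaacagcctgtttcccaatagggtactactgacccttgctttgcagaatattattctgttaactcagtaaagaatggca
Nr1h3: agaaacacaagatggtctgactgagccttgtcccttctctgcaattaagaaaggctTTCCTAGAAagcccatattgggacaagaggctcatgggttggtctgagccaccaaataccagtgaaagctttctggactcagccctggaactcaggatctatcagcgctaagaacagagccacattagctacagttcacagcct
Fabp1: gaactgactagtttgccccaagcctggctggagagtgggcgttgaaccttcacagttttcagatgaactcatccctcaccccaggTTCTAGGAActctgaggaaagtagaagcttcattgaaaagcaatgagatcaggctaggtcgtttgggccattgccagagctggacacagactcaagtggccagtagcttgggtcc

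PPARδ-specific sites are shown with a DR1 of 1 mismatch in capitals, a further one at *Etfdh* being left unmarked. They lay in introns of *Etfdh*, which passes β-oxidation electrons to the respiratory chain (chr3:79628246-79628445, which also falls in the promoter window of the transcript 4930579G24Rik), of the nuclear receptor gene *Esrra* (chr19:6921255-6921454) and of the glycogen synthase gene *Gys2* (chr6:142471271-142471470), and 145039 bp upstream of the start of *Nfil3*, a clock-controlled repressor gene (chr13:53125978-53126177).
Etfdh: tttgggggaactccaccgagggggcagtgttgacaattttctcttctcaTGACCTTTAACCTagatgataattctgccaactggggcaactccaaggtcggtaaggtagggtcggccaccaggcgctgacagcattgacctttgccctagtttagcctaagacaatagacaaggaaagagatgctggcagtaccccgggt
Esrra: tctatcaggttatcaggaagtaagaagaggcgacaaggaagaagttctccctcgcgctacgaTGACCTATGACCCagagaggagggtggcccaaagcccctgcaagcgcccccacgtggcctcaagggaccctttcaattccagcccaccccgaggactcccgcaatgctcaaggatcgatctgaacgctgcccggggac
Gys2: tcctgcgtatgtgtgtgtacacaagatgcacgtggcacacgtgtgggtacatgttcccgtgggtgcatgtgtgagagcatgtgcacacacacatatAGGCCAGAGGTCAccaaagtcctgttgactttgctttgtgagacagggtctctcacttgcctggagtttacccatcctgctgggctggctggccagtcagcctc
Nfil3: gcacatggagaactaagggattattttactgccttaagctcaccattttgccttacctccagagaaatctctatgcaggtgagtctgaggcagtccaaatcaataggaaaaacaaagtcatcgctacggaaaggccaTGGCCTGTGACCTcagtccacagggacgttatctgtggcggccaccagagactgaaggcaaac

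A pair of shared windows that held both elements, chosen after their values were seen, came from 7729 bp upstream of *Bcl6* itself (chr16:23996481-23996680, an exact BCL6 element beside a DR1 with 2 mismatches) and 931 bp upstream of *Nr1i3*, the gene of the nuclear receptor CAR (chr1:171212939-171213138, a BCL6 element with 1 mismatch beside a DR1 with 2). Capitals mark both elements. A match describes the letters of a window and is not by itself a bound site.
Bcl6: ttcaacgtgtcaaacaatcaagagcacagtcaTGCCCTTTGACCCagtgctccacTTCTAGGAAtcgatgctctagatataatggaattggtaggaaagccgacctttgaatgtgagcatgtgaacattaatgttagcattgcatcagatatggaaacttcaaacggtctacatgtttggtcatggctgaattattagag
Nr1i3: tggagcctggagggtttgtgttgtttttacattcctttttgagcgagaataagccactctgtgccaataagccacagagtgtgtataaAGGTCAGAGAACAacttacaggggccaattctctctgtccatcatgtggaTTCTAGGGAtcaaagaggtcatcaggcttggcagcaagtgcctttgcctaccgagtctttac

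Most fed PPARδ peaks were shared with fed BCL6. The 7328 PPARδ peaks could pair with only a minority of the 15642 BCL6 peaks, so list length limited the BCL6 share. The 4210 shared sites were 57.5% of the PPARδ peaks (95% Wilson interval 56.3% to 58.6%) and 26.9% of the BCL6 peaks (26.2% to 27.6%), and each joined a single BCL6 peak to a single PPARδ peak. These intervals, like all others given for shares and odds ratios, cover counting error only. Of the PPARδ-specific peaks, 43.3% had a fed BCL6 center within 10000 bp, and their median distance to one was 14091 bp. For the BCL6-specific peaks, 24.5% lay within 10000 bp of a fed PPARδ center, and the median distance was 43746 bp. Distances to a shorter list tend to be longer, so these values were not compared between the factors. On the autosomes and X, the shared portion of the PPARδ peaks ran from 49.4% on chromosome 17 to 65.8% on chromosome 3, and the Y chromosome had 2 PPARδ peaks, neither of them shared.

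Within shared sites the centers nearly coincided. The median distance between the BCL6 and PPARδ centers was 30 bp (quartiles 14 and 55 bp), 70.7% lay under 50 bp apart and 93.2% under 100 bp, and 38 pairs had the same center. The BCL6 center had the higher coordinate at 2050 sites and the PPARδ center at 2122. Few pairs lay near the limit of the rule, with 59 BCL6 peaks at 150 to 200 bp from a PPARδ center and 21 at 200 to 250 bp. The median distance was 34 bp at promoter sites, 26 bp at exon sites, 30.5 bp at intron sites and 30 bp at intergenic sites.

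**Figure D1:**
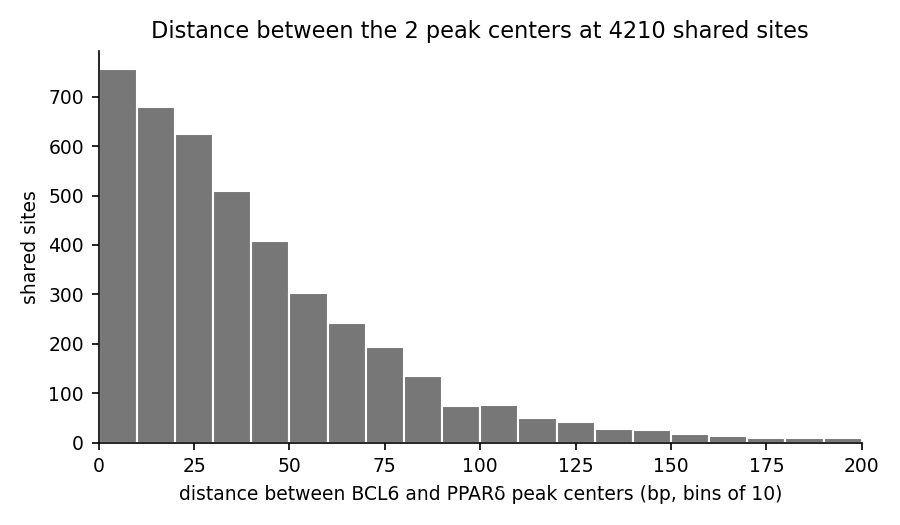
Number of shared sites (vertical axis) by the distance between the BCL6 and PPARδ peak centers in bp (horizontal axis, bins of 10 bp). Most of the 4210 pairs sit at short distances, with a median of 30 bp and 62 pairs at 150 bp or more.

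PPARδ alone was found at gene starts more often than PPARδ with BCL6. A promoter was taken as 1000 bp upstream to 100 bp downstream of the start of any RefSeq transcript, and it held the center of 193 shared sites (4.58%, 3.99% to 5.26%), 490 BCL6-specific sites (4.29%, 3.93% to 4.67%) and 282 PPARδ-specific sites (9.04%, 8.09% to 10.1%). Promoters make up 1.19% of the genome. The odds of a promoter position were lower at shared than at PPARδ-specific sites (odds ratio 0.483, 95% interval 0.400 to 0.584, two-sided Fisher's exact test with Benjamini-Hochberg adjustment, adjusted p = 1.20e-13). Against BCL6-specific sites the odds ratio was 1.07 (0.905 to 1.27, adjusted p = 0.488), a difference that did not pass the test. Sites are the units of these tests and are not replicates.

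PPARδ-specific sites also lay nearest to gene starts by distance. Within 1 kb of the nearest start lay 12.2% of the PPARδ-specific sites, 4.70% of the shared sites (odds ratio 0.356, adjusted p = 1.25e-30) and 5.25% of the BCL6-specific sites (odds ratio of shared sites 0.891, adjusted p = 0.202). The median distance to the nearest start was 16529 bp for PPARδ-specific, 23272 bp for shared and 27859 bp for BCL6-specific sites. Exons held 4.23% of the PPARδ-specific sites but 2.49% of the shared and 2.52% of the BCL6-specific sites (shared against PPARδ-specific, odds ratio 0.579, adjusted p = 1.13e-04). Introns held 48.1%, 50.5% and 51.2% of the shared, BCL6-specific and PPARδ-specific sites, and intergenic positions held 44.8%, 42.7% and 35.5%. The intergenic share was higher at shared sites than at PPARδ-specific sites (odds ratio 1.47, 1.34 to 1.62, adjusted p = 9.19e-15).

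The promoters themselves differed in CpG content, which separates broadly expressed genes from many tissue-specific ones. A promoter was called CpG-rich when its GC content was at least 50% and its observed over expected CpG ratio at least 0.6, which held for 23.8% of 31603 starts. Of the shared promoter sites, 15 of 193 lay in a CpG-rich promoter (7.77%, 4.77% to 12.4%). BCL6-specific sites had 86 of 490 (17.6%, 14.4% to 21.2%) and PPARδ-specific sites 85 of 282 (30.1%, 25.1% to 35.7%). Shared sites were less often CpG-rich than PPARδ-specific sites (odds ratio 0.195, 0.109 to 0.351, Fisher's exact test, adjusted p = 2.38e-09) and than BCL6-specific sites (odds ratio 0.396, 0.223 to 0.704, adjusted p = 0.00112). The latter call was lost with a stricter CpG definition (odds ratio 0.677, adjusted p = 0.378). The share of promoter sites at protein-coding starts was 83.4%, 86.9% and 88.7% in the shared, BCL6-specific and PPARδ-specific classes, and neither difference passed the test (adjusted p = 0.271 and 0.206 by Fisher's exact test).

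**Figure D2:**
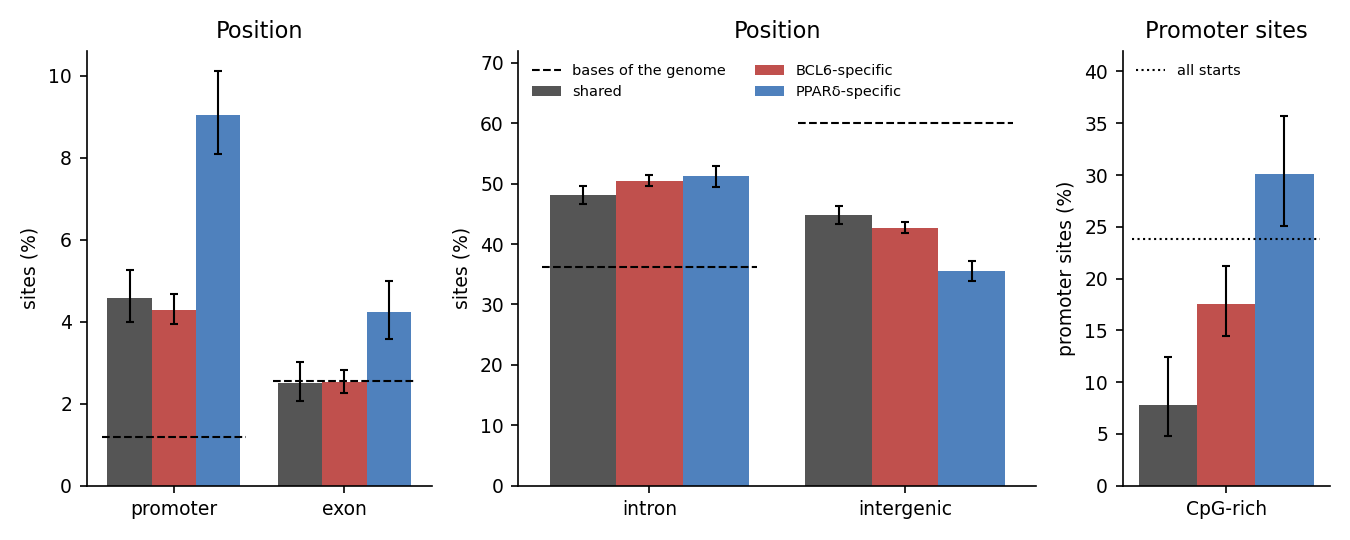
Percent of shared, BCL6-specific and PPARδ-specific sites by position (left and middle panels) and percent of promoter sites in CpG-rich promoters (right panel), with 95% Wilson intervals as bars and dashed or dotted lines for the genome and for all starts. PPARδ-specific sites stand highest for promoters (9.04%), exons (4.23%) and CpG-rich promoters (30.1%).

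Shared promoter sites were found at 190 genes, of which 24 were among the 391 genes listed by pathway and are described here. The listed ones included *Bdh1*, which converts acetoacetate to β-hydroxybutyrate (center 67 bp upstream of the start, BCL6 and PPARδ centers 18 bp apart), and *Fabp1* (68 bp upstream, 43 bp apart). These sites of *Bdh1* and *Fabp1* were called in all 7 lists. The acyl-CoA dehydrogenase gene *Acadm* had a shared site 296 bp upstream, and the glucose transporter gene *Slc2a2* had one 26 bp upstream. The β-oxidation isomerase genes *Ech1* and *Eci2* had shared sites 212 and 217 bp upstream. *Cish*, a feedback inhibitor of cytokine signaling, had a shared site 68 bp downstream of its start that held an exact BCL6 element and was called in all 7 lists. *Igfals*, a growth hormone target, had a shared site with an exact BCL6 element 67 bp upstream.

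BCL6 without fed PPARδ lay in the promoters of 28 listed genes, at 29 sites, of which 20 had a fed PPARα call. They included *Cyp7a1*, the rate-limiting enzyme of bile acid synthesis, and *Cyp8b1*, which makes cholic acid possible (161 and 107 bp upstream), the bile acid transporter gene *Slc10a1* (6 bp upstream), and the gluconeogenic genes *Pck1* and *G6pc* (283 and 153 bp upstream). The growth hormone pathway genes *Igf1*, *Socs2* and *Stat5b* had BCL6-specific sites 487, 54 and 78 bp upstream, and *Irs2* and *Akt2* of insulin signaling had them 914 and 163 bp upstream. BCL6 was called again in floxed livers at 21 of the 29 sites, and those of *Akt2* and *Stat5b* were not among them.

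PPARδ without a BCL6 peak in fed C57BL/6 livers lay in the promoters of 29 listed genes. The electron transfer flavoprotein genes *Etfa* and *Etfb* had sites 79 and 132 bp upstream, and the thiolase genes *Acaa2* and *Acaa1a* had sites 98 and 96 bp upstream. *Slc25a20*, the mitochondrial carnitine-acylcarnitine carrier gene, had a site 24 bp downstream of its start, *Cpt1b* had one 253 bp upstream, and the lipid droplet gene *Plin5* had one 102 bp upstream. *Pdk4*, which blocks pyruvate oxidation, had one 276 bp upstream. Of the 30 PPARδ-specific promoter sites of listed genes, 17 had a BCL6 call in the floxed livers, including those of *Etfb*, *Acaa2*, *Acaa1a*, *Plin5* and *Pdk4*, so the label holds for the C57BL/6 lists only. Those of *Etfa*, *Slc25a20* and *Cpt1b* had no BCL6 call in either fed list. Over all 282 PPARδ-specific promoter sites, 106 (37.6%) had a BCL6 call in the floxed livers.

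In the set of protein-coding genes, 158 (0.726%) had a shared, 414 (1.90%) a BCL6-specific and 248 (1.14%) a PPARδ-specific site in a promoter. PPARδ-specific promoter sites were found at 4 of 17 mitochondrial β-oxidation genes, 4 of 16 peroxisomal β-oxidation genes and 2 of 7 carnitine shuttle genes. Shared ones were found at 2 of 17, 2 of 16 and 0 of 7, and BCL6-specific ones at 0 of 17, 1 of 16 and 0 of 7. For bile acid and cholesterol genes the counts were 3 shared, 5 BCL6-specific and 1 PPARδ-specific of 20, and for insulin signaling 0, 3 and 0 of 11. No gene of the mitochondrial respiratory chain (25 genes) or the circadian clock (15 genes) had a promoter site of any class.

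The classes found together in a promoter are given as a description. Shared, BCL6-specific and PPARδ-specific promoter sites were found at 0.726%, 1.90% and 1.14% of protein-coding genes, so a single class is the default. By the rule, centers within 200 bp also counted as shared. Of 923 genes with a promoter site, 176 had shared sites only, 461 BCL6-specific only and 261 PPARδ-specific only. At 11 genes a BCL6-specific and a PPARδ-specific peak lay side by side in the same promoter, 295 to 527 bp apart. They included *Abcb11*, the bile salt export pump gene (BCL6 425 bp and PPARδ 49 bp upstream), the acetyl-CoA thioesterase gene *Acot12* (411 and 116 bp upstream) and *Cyp4f15*, a fatty acid ω-hydroxylase gene (399 and 20 bp upstream). At these 3 genes the PPARδ peak was the nearer to the start. BCL6 in floxed fed livers was called at the PPARδ position of all 3 and at the BCL6 position of none, so the separation holds for the C57BL/6 lists only.

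Calls in the other lists separated the classes. PPARα in fed livers was called at 4004 of the 4210 shared sites (95.1%, 94.4% to 95.7%), at 60.9% of the BCL6-specific and at 61.0% of the PPARδ-specific sites. The odds of a fed PPARα call at shared sites were 12.5 times those at BCL6-specific sites (10.8 to 14.5) and 12.4 times those at PPARδ-specific sites (10.6 to 14.6), both past Fisher's exact test with adjusted p at the floor of 1e-300. In fasted livers PPARα was called at 94.6%, 58.2% and 75.2% of shared, BCL6-specific and PPARδ-specific sites, with odds ratios of 12.6 and 5.75 for shared sites against the other two.

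BCL6 calls were also found again more often at shared than at BCL6-specific sites. BCL6 in floxed fed livers was called at 86.9% of shared and 63.0% of BCL6-specific sites (odds ratio 3.91, 3.54 to 4.31, adjusted p = 4.78e-203). In fasted livers it was called at 68.7% and 41.7% (odds ratio 3.06, 2.84 to 3.30, adjusted p = 6.99e-200). At PPARδ-specific sites, which had no BCL6 peak in fed C57BL/6 livers, the floxed livers had a BCL6 call at 1155 (37.0%) and the fasted livers at 359 (11.5%). Counting a BCL6 call in either fed list, 5365 of the 7328 PPARδ peaks (73.2%) lay with BCL6, an alternative chosen after the data were seen. A further count, of PPARδ peaks with no BCL6 call in any list and no PPARα call in either feeding state, gave 573 (7.82%).

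Fasted PPARδ did not separate shared from PPARδ-specific sites. It was called at 876 shared sites (20.8%, 19.6% to 22.1%) and 654 PPARδ-specific sites (21.0%, 19.6% to 22.4%), an odds ratio of 0.990 (0.883 to 1.11, Fisher's exact test, adjusted p = 0.862), and at 1.11% of BCL6-specific sites. The fasted PPARδ list was the shortest of all, with 2399 peaks against 7328 in the fed state. The part of unequal depth or enrichment in these shares was not tested. At shared sites, 2217 (52.7%) kept a BCL6 call but no PPARδ call after fasting, 673 (16.0%) had both, 203 (4.82%) had PPARδ without BCL6 and 1117 (26.5%) had neither. Where both were missing in fasted livers, 85.9% of the shared sites still had a fasted PPARα call.

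**Figure D3:**
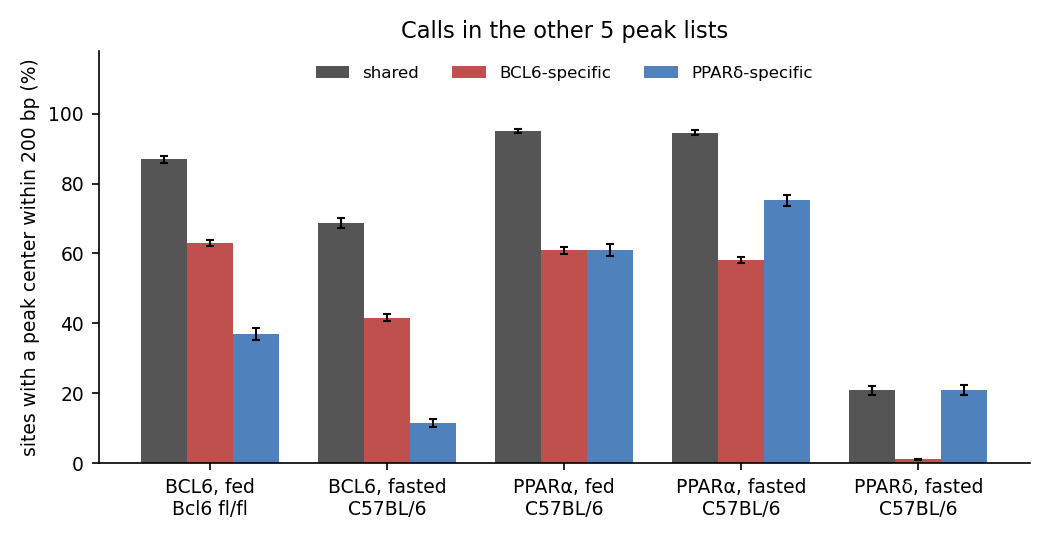
Percent of shared, BCL6-specific and PPARδ-specific sites with a peak center within 200 bp in each of the 5 lists that did not define the classes, with 95% Wilson intervals as bars. Shared sites reach 95.1% for fed PPARα and 86.9% for BCL6 in floxed livers, whereas fasted PPARδ is at 20.8% and 21.0% of shared and PPARδ-specific sites.

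A total of 635 shared sites (15.1%) were called in all 7 lists. They lay nearest to 540 genes, 65 of them in the pathway lists, and 28 were in promoters. *Acsl1*, which activates long-chain fatty acids, had 4 such sites. Others lay 4462 bp downstream of the start of *Fgf21*, a fasting hormone gene, 2710 bp upstream of *Pdk4*, 1518 bp downstream of the start of the carnitine palmitoyltransferase gene *Cpt2*, and 4186 bp upstream of *Cyp4a10*, a fatty acid ω-hydroxylase gene. All 5 further lists had a call at 0.630% of BCL6-specific and 1.64% of PPARδ-specific sites.

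The classes differed in the sequence at their centers. In 200 bp windows, DR1 with at most 2 mismatches was found at 790 shared (18.8%), 988 BCL6-specific (8.64%) and 773 PPARδ-specific sites (24.8%). Windows 1000 bp to either side held it in 3.40%, 2.98% and 3.22%, and 2.12% of windows at gene starts held it. DR1 was more frequent at shared than at BCL6-specific sites (odds ratio 2.44, 2.21 to 2.70, Fisher's exact test, adjusted p = 7.76e-63) and less frequent than at PPARδ-specific sites (odds ratio 0.701, 0.626 to 0.784, adjusted p = 2.33e-09).

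The BCL6 element ran the other way. With at most 1 mismatch to TTCCTAGAA it was found at 483 shared (11.5%), 1986 BCL6-specific (17.4%) and 211 PPARδ-specific sites (6.77%), beside 7.20%, 7.07% and 7.52% of the windows 1000 bp away and 4.66% of windows at gene starts. Shared sites held it less often than BCL6-specific sites (odds ratio 0.616, 0.554 to 0.686, adjusted p = 3.89e-19 by Fisher's exact test) and more often than PPARδ-specific sites (odds ratio 1.79, 1.51 to 2.11, adjusted p = 2.56e-11). At PPARδ-specific sites its share was no higher than in the windows to either side. With a fed PPARα call, its share was 11.2% at shared and 11.5% at BCL6-specific sites. Without one, it was 16.5% at 206 shared sites and 26.5% at BCL6-specific sites, a split that was not tested. Exact elements were found at 39 shared (0.926%), 279 BCL6-specific (2.44%) and 4 PPARδ-specific sites (0.128%). The STAT element TTCNNNGAA, which can overlap the BCL6 element, was found in 12.6%, 15.3% and 7.31% of the windows in the same order.

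Most sites of every class held neither element at these settings. Neither DR1 nor the BCL6 element was found at 71.5% of shared, 75.4% of BCL6-specific and 70.3% of PPARδ-specific sites, and both were found at 74 shared sites (1.76%), 156 BCL6-specific sites (1.36%) and 57 PPARδ-specific sites (1.83%). Within shared sites the center of the matching factor was more often the nearer to a DR1 or a BCL6 element. At the 717 shared sites with a single DR1, it lay a median 31 bp from the PPARδ center and 43 bp from the BCL6 center, and the PPARδ center was the nearer at 429. At the 438 with a single BCL6 element, the medians were 39 bp from the BCL6 center and 49.5 bp from the PPARδ center, and the BCL6 center was the nearer at 262. For the HNF6 element ATCAATA, at 456 shared sites, the medians were 31 bp from the BCL6 center and 35 bp from the PPARδ center.

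BCL6 elements were more frequent at BCL6-specific sites without a fed PPARα call than at those with one. Of the 4476 BCL6-specific sites without fed PPARα, 26.5% held the BCL6 element and 21.7% the STAT element. At the 6956 BCL6-specific sites with fed PPARα the shares were 11.5% and 11.2%. Of the sites without fed PPARα, 25.2% had a fasted PPARα call. BCL6 was called again in floxed livers at 48.8% of the sites without and 72.1% of the sites with fed PPARα. These shares are given as a description. In promoters, the BCL6 element was found at 37.2% of BCL6-specific sites in CpG-rich and 20.3% in other promoters, whereas DR1 was found at 21.2% of PPARδ-specific sites in CpG-rich and 24.9% in other promoters.

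Elements of hepatocyte transcription factors were more frequent at sites with BCL6, shared or alone, than at PPARδ-specific sites. PPARδ-specific sites also held them more often than the windows 1000 bp to either side. In those windows the HNF6, FOXA, C/EBP and HNF4 shares were 1.94%, 2.44%, 2.77% and 5.79%. The HNF6 element ATCAATA was found at 11.7% of shared and 11.5% of BCL6-specific sites but 5.32% of PPARδ-specific sites (shared against PPARδ-specific, odds ratio 2.36, 1.97 to 2.83, adjusted p = 6.04e-21), and at 0.962% of gene starts. The FOXA element TGTTTAC gave 9.36%, 9.88% and 5.52% (odds ratio 1.77, adjusted p = 2.33e-09, 1.62% of starts). For the C/EBP element TTGCGCAA with at most 1 mismatch the shares were 12.4%, 11.3% and 6.96% (odds ratio 1.90, adjusted p = 4.88e-14, 3.85% of starts), and for the HNF4 element CAAAGTCCA with at most 1 mismatch 21.0%, 19.8% and 15.6% (odds ratio 1.44, adjusted p = 1.04e-08, 4.96% of starts). Neither of these last differences held with 1 mismatch fewer, where the odds ratios were 0.926 and 0.987 (adjusted p = 1 and 0.997). None of the 4 elements differed between shared and BCL6-specific sites past the test in 200 bp windows.

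GC-rich promoter elements were found at few sites of any class, and more often at PPARδ-specific than at shared sites. The KLF/SP element GGGGCGGG was found at 2.63% of them and at 0.523% of shared sites (odds ratio 0.195, 0.121 to 0.312, Fisher's exact test, adjusted p = 2.81e-13), beside 16.7% of windows at gene starts. The ETS element CCGGAAGT was found at 15 PPARδ-specific and 3 shared sites (adjusted p = 0.00129) and an NRF1 element at 16 and 3 (adjusted p = 7.05e-04). Mean GC content moved with the classes, at 50.3% (SD 7.53) for PPARδ-specific, 45.9% (SD 5.62) for shared and 43.2% (SD 5.85) for BCL6-specific windows. In windows of 40% to 50% GC, a band set after the data were seen, the KLF/SP odds ratio was 0.811 (adjusted p = 0.775), whereas DR1 stayed less frequent at shared than at PPARδ-specific sites (odds ratio 0.671, adjusted p = 1.21e-05). In that band DR1 was the only element less frequent at shared than at PPARδ-specific sites past the test, so neither ETS nor NRF1 passed there. Of 16 elements tested over all windows, AP-1, CRE, ERR, NF-Y and CTCF passed in neither comparison.

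**Figure D4:**
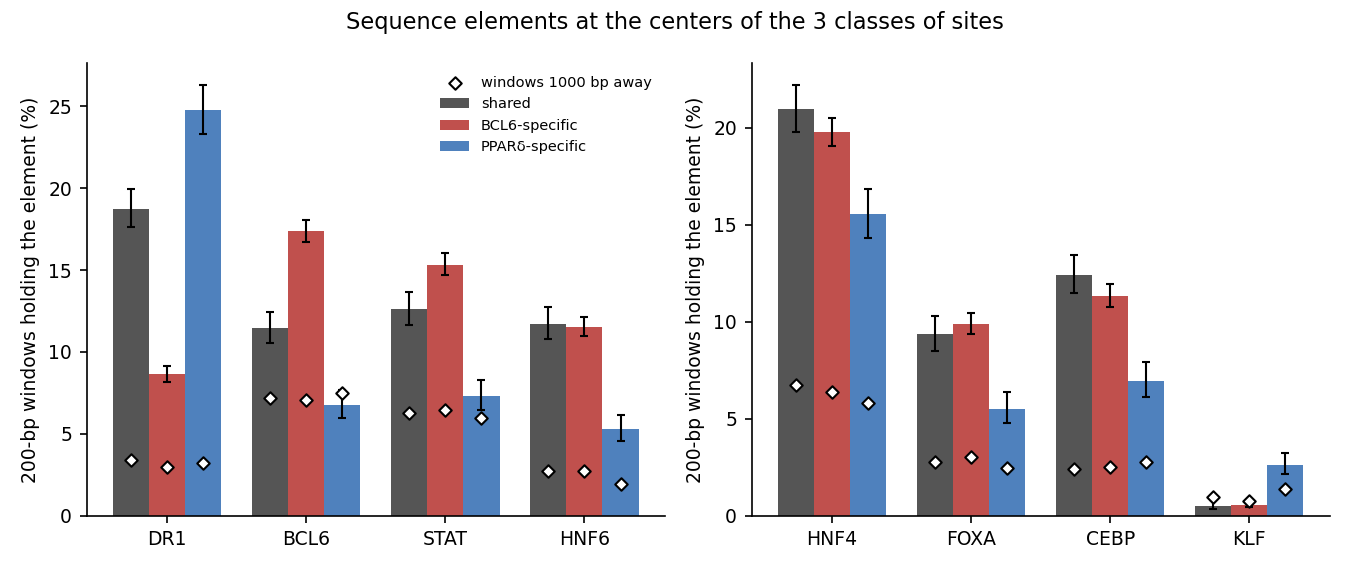
Percent of 200 bp windows at shared, BCL6-specific and PPARδ-specific sites that held each of 8 sequence elements, with 95% Wilson intervals as bars and open diamonds for windows 1000 bp to either side. DR1 is lowest at BCL6-specific sites (8.64%), and the BCL6 element is highest there (17.4%).

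By nearest start within 1 Mb, 2576 of 21774 protein-coding genes (11.8%) had a shared site, 5425 (24.9%) a BCL6-specific site and 2375 (10.9%) a PPARδ-specific site. Taking the gene as the unit, 2871 genes had BCL6-specific sites only, 787 had PPARδ-specific sites only, 696 had both at separate sites and 14844 had none. The genes with the most shared sites were the lipid phosphatase gene *Plpp3* (13), *Myc* (12), the insulin-regulated transcription factor gene *Foxo1* (10), *Tbl1xr1* (10) and *Nfia* (9). BCL6-specific sites were most numerous near *Adgrl2* (26), the PI3-kinase subunit gene *Pik3r1* (21), *Lpp* (20), the nuclear receptor gene *Rora* (19) and the insulin receptor substrate gene *Irs2* (17). PPARδ-specific sites were most numerous near *Rreb1* (7), *Zfp36l2* (7), *Atxn1* (6), the hepatocyte transcription factor gene *Cebpa* (6) and *Foxp1* (6).

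Fatty acid oxidation genes had sites of all 3 classes. Of 17 mitochondrial β-oxidation genes, 9 had a shared, 9 a BCL6-specific and 10 a PPARδ-specific site, with a median of 1 site of each class per gene against 0 over all protein-coding genes. Of these genes, 5 (*Acadvl*, *Acadl*, *Acads*, *Etfb* and *Etfdh*) had PPARδ-specific sites only. In the acyl-CoA dehydrogenase genes *Acadvl*, *Acadl* and *Acads* these sites lay 423, 462 and 190 bp downstream of the start, and each was called again for fasted PPARδ. *Hadh* had 3 shared, 3 BCL6-specific and 1 PPARδ-specific sites and *Eci2* had 4, 4 and 0. Of 16 peroxisomal β-oxidation genes, 10 had a shared, 8 a BCL6-specific and 12 a PPARδ-specific site. *Ehhadh*, the peroxisomal bifunctional enzyme, had 3 shared and 4 BCL6-specific sites, and *Crot*, which exports chain-shortened acyl groups, had 4 shared, 3 BCL6-specific and 1 PPARδ-specific.

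Carnitine shuttle genes had mostly shared and PPARδ-specific sites, and ω-oxidation genes mostly shared and BCL6-specific sites. BCL6-specific sites were found at 1 of 7 carnitine shuttle genes (14.3%), against 24.9% of all protein-coding genes. PPARδ-specific sites were found at 2 of 14 ω-oxidation genes (14.3%), against 10.9% of all protein-coding genes. With so few genes, neither share was read as differing from that of all genes. The 7 carnitine shuttle genes had 8 shared, 1 BCL6-specific and 9 PPARδ-specific sites. *Cpt1a*, the gate of mitochondrial fatty acid entry, had 3 shared and 2 PPARδ-specific sites and none of BCL6 alone, and *Cpt2* had 1 shared site. Of 14 ω-oxidation genes, 10 had a shared, 9 a BCL6-specific and 2 a PPARδ-specific site, with 19, 19 and 4 sites. *Cyp4a31* had 3 shared sites, in 1 of which the centers lay 140 bp apart, and *Aldh3a2*, a fatty aldehyde dehydrogenase gene, had 2 shared and 1 BCL6-specific. Reads that match near-identical copies were left out by the authors, so genes of the Cyp4a and Acot clusters can lack peaks.

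Of 8 ketone body genes, 5 had a shared, 5 a BCL6-specific and 2 a PPARδ-specific site, and of 15 fatty acid uptake and activation genes the counts were 9, 10 and 5. *Bdh1* had 2 shared, 3 BCL6-specific and 1 PPARδ-specific. *Acsl1* had 8 shared, 4 BCL6-specific and 3 PPARδ-specific sites, *Fabp1* had 4 shared and 3 BCL6-specific, and the fatty acid translocase gene *Cd36* had 3 and 3. Of 13 acyl-CoA thioesterase genes, 6 had a shared, 8 a BCL6-specific and 4 a PPARδ-specific site. By nearest start, *Acot4* had 2 shared and 2 BCL6-specific sites, *Acot3* had 3 BCL6-specific sites and *Acot2* had 1 PPARδ-specific site 472 bp upstream. The rule sets how such clustered genes divide their sites, since a region 6081 bp upstream of *Acot2* with both fed peaks lay nearer to another start.

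Of 19 lipid droplet and lipase genes, 8 had a shared, 7 a BCL6-specific and 11 a PPARδ-specific site, with 18, 14 and 17 sites. Of these genes, 6 (*Plin1*, *Plin4*, *Plin5*, *Cidec*, *Pnpla2* and *Fitm2*) had PPARδ-specific sites only. *Plin2*, the main droplet coat protein of hepatocytes, had 3 shared sites and 1 BCL6-specific site. Among 16 hepatokine and fasting genes, 12 had a shared, 10 a BCL6-specific and 8 a PPARδ-specific site. *Angptl4*, a lipoprotein lipase inhibitor, had 3 shared sites and 1 BCL6-specific site, *Fgf21* had 2 shared sites, and *Txnip* had 4 shared sites and no others. The coactivator genes *Ppargc1a* and *Ppargc1b* differed, with 1 shared, 7 BCL6-specific and 1 PPARδ-specific site at the first and 3, 1 and 4 at the second.

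Insulin, growth hormone and bile acid genes had sites of all 3 classes, and over all protein-coding genes there were 4210 shared, 11372 BCL6-specific and 3117 PPARδ-specific sites. The 11 insulin signaling genes had 19 shared, 65 BCL6-specific and 16 PPARδ-specific sites. Of these genes, 10 held a BCL6-specific and 7 a PPARδ-specific site, against 24.9% and 10.9% of all protein-coding genes. *Irs2* had 5 shared, 17 BCL6-specific and 2 PPARδ-specific sites, and *Irs1* had 5, 9 and 0. Of 12 growth hormone and STAT5 genes, 7 had a shared, 7 a BCL6-specific and 6 a PPARδ-specific site, with 21, 46 and 10 sites. The growth hormone receptor gene *Ghr* had 4 shared and 10 BCL6-specific sites, and *Igf1* had 6, 12 and 2. Of 20 cholesterol and bile acid genes, 14 had a shared, 18 a BCL6-specific and 8 a PPARδ-specific site, with 27, 51 and 9 sites, among them *Cyp7b1* with 2 shared and 10 BCL6-specific sites. Glucose genes were more even, at 12, 13 and 10 of 17. *Elovl6*, a fatty acid elongase of lipogenesis, had 4 shared, 8 BCL6-specific and 1 PPARδ-specific sites.

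The genes of the factors themselves held sites. *Bcl6* had 5 shared, 11 BCL6-specific and 3 PPARδ-specific sites. *Ppara* had 4 shared, 2 BCL6-specific and 3 PPARδ-specific, and *Ppard* had 1 BCL6-specific site, in an intron 3726 bp downstream of its start. *Rxra*, the partner of both PPARs, had 4 shared and 5 PPARδ-specific sites and none of BCL6 alone. Of 13 BCL6 corepressor genes, 8 had a BCL6-specific site, with 14 near *Bcor* and 16 near *Tbl1xr1*. Of 14 hepatocyte transcription factor genes, 9 had a shared, 12 a BCL6-specific and 10 a PPARδ-specific site. *Foxa2* had 6, 14 and 1, whereas *Cebpa* had 0, 2 and 6.

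Markers of other liver cell types and housekeeping genes were counted the same way. Of 25 respiratory chain genes, 1 had a shared, 3 a BCL6-specific and none a PPARδ-specific site, and of 28 ribosomal protein genes the counts were 2, 6 and 2. Of 12 Kupffer cell markers no gene had a site of any class, of 12 lymphocyte and 12 stellate cell markers 1 gene each had a shared site, and of 12 endothelial markers 4 had a shared, 7 a BCL6-specific and 2 a PPARδ-specific site. Of 8 cholangiocyte markers the counts were 2, 4 and 3. The endothelial and cholangiocyte shares were above those of all protein-coding genes, and the part of these cells in the peaks was not tested. Of 16 genes known as BCL6 targets in lymphocytes, 4 had a shared and 8 a BCL6-specific site, with 9 BCL6-specific sites near *Prdm1*, the plasma cell regulator. Genes with large flanking regions take more sites by nearest start, so these counts were not read as enrichment.

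**Figure D5:**
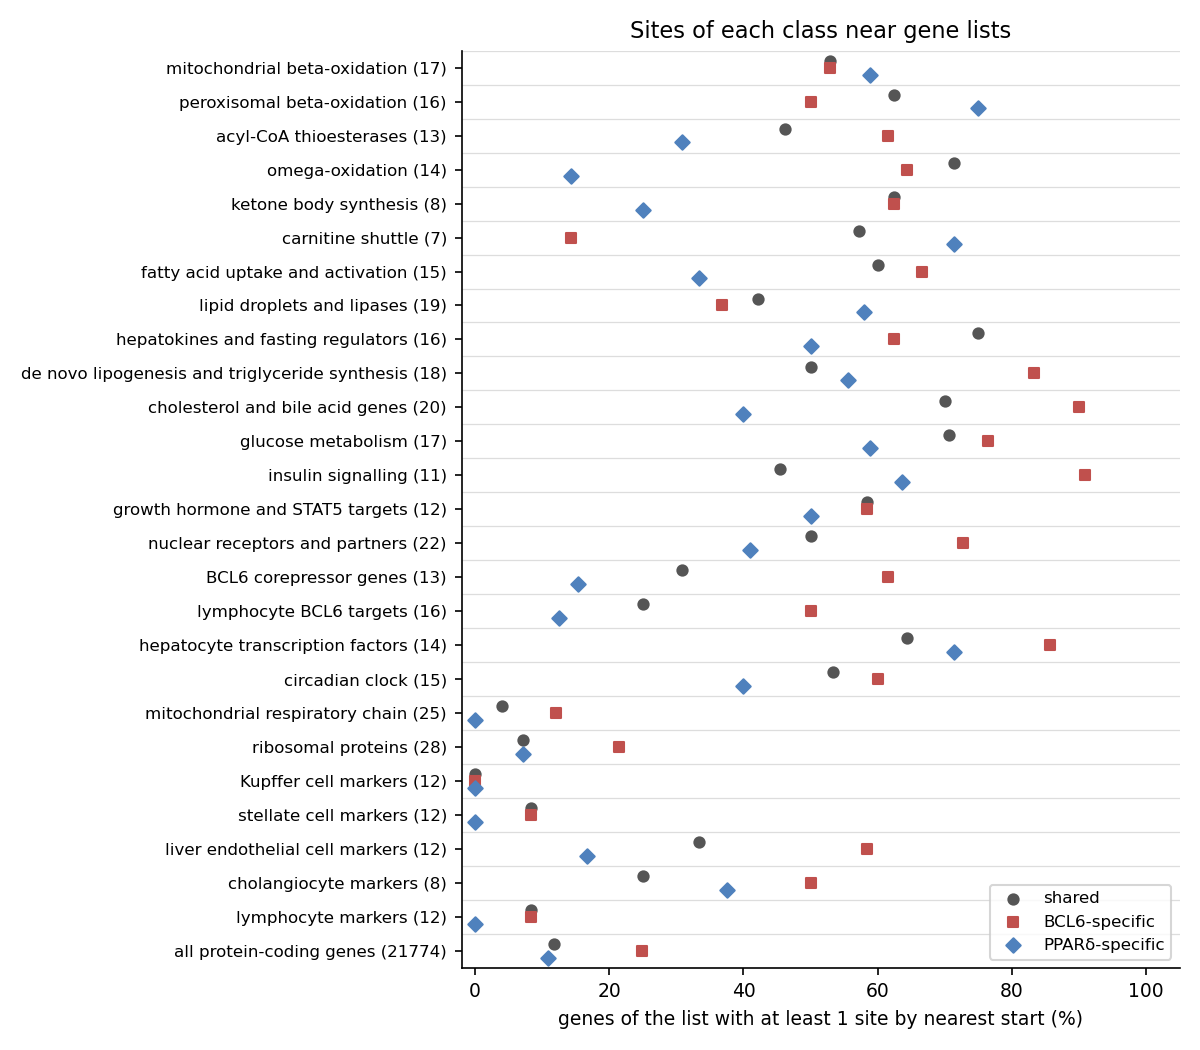
Percent of genes in each of 26 lists (rows, with the number of genes) that had at least 1 shared (circles), BCL6-specific (squares) or PPARδ-specific site (diamonds) by nearest start, with all protein-coding genes at the bottom. PPARδ-specific sites lead for peroxisomal β-oxidation (12 of 16 genes) and the carnitine shuttle (5 of 7). BCL6-specific sites lead for insulin signaling (10 of 11), as they do over all protein-coding genes (24.9%).

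The regions that the study had chosen for ChIP-qPCR were nearly all shared. Of 15 amplicons placed by their primers, 15 had a fed BCL6 center within 200 bp and 14 had both factors. The exception lay 1140 bp downstream of the start of *Acot3*, 25 bp from a BCL6 center and 10758 bp from the nearest fed PPARδ center. The amplicons were chosen by the study, so their share describes that choice. Around the same genes, *Por*, the electron donor of liver cytochromes P450, had 5 shared and 3 BCL6-specific sites, *Abhd2* had 4 and 2, the desaturase gene *Fads2* had 2 and 1, and *Idh2* had 1 and 1.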

How the data were processed

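ChIP-seq was run by the authors on whole liver chromatin of C57BL/6 mice, with 3 samples behind each list used. Per the labels and the study's methods, Bowtie placed the reads on mm10, only those with a unique position counted, and HOMER peaks, called by the authors on pooled samples over input, passed a DESeq2 filter. The deposited lists hold only chromosome, start and end (unit: position in bp), so depth is unknown, no test between samples is possible, and no library can be left out. Every peak of a list has the same width, 216 bp for fed BCL6 and 192 bp for fed PPARδ.

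Here, peaks were matched by centers within 200 bp and placed on RefSeq transcripts and sequence of GRCm38, the assembly of mm10, with nearest protein-coding starts within 1 Mb. Shared sites were tested against each specific class with Fisher's exact test, two-sided, adjusted by Benjamini and Hochberg's method within each family, and p-values under 1e-300 were set to that value. Shares have 95% Wilson and odds ratios 95% Woolf intervals. Elements were searched on both strands in 200 bp windows. Scripts were tested on simulated data. The members and gene lists were chosen with earlier results of these data known. Named genes were those with tracks or ChIP-qPCR regions in the study, the 5 genes with the most sites of each class, and listed genes with promoter sites or the most sites, of which a part is given. Printed windows were those of listed genes with the fewest mismatches that touch no annotated exon. Alternatives changed the match distance, promoter and CpG definitions, window, mismatches, repeats and reach. Samples of other genotypes and marks were not analysed here. Some genes of the rule are not reported here. Python 3.11.15, NumPy 2.4.6, pandas 2.3.3, SciPy 1.17.1, pysam 0.24.0 and Matplotlib 3.10.9 were used.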

Additional observations from a re-analysis of the deposited data

How the results depend on the processing

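Of 312 values recomputed under alternatives, 289 kept their direction and their side of the threshold or stayed within the main interval or count limit. With centers within 100 bp the shared portion was 53.7% of the PPARδ peaks and 25.1% of the BCL6 peaks, and with 400 bp it was 58.8% of the PPARδ peaks. Counting BCL6 calls of C57BL/6 or floxed fed livers raised it to 73.2%. The CpG-rich odds ratio of shared against BCL6-specific promoters was 0.677 (adjusted p = 0.378) with GC of at least 55% and a ratio of at least 0.65. Elements found less often at shared than at PPARδ-specific sites numbered 4, and were 2 in 50 bp windows and 1 in windows of 40% to 50% GC, where those more often at shared than at BCL6-specific sites were 2 in place of 1. With 1 mismatch fewer, the odds ratios of shared against PPARδ-specific sites turned to 0.987 for HNF4 and 0.926 for C/EBP. The cause of these changes was not tested. The floxed-liver, GC-band and 400 bp gene alternatives were chosen after seeing the data. No paired analysis was possible because each list pools its samples, and no sample could be left out for the same reason. Without scores or reads, weak peaks cannot be told from absent ones, and classes depend on where each list's threshold fell.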
